A study of Homo sapiens with 22 samples.

Results

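Asymmetric dimethylation of arginine 2 of histone H3 (H3R2me2a) was described at the genes of the enzymes that add methyl groups to the nearby lysine 4 (H3K4) and of the KDM5 enzymes that remove them. The members were 10 genes: the methyltransferase genes KMT2A, KMT2B, KMT2D, SETD1A and ASH1L, the complex subunit genes ASH2L and RBBP5, and the demethylase genes KDM5A, KDM5B and KDM5C. They were selected on the measured H3R2me2a regions themselves: the authors' region lists name each of them as the gene of the next transcript. They account for 12 of the 8819 regions and for 10 of the 6697 gene names in those lists. Having a region is therefore how they were chosen and is not a result.

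The lists came from ChIP-seq, the sequencing of DNA recovered with chromatin by an antibody. The cells were NT2/D1, an established human embryonal carcinoma line that is pluripotent and differentiates under all-trans retinoic acid (ATRA). Both libraries used were from CRISPR/Cas9 control cells, which keep PRMT6, the arginine methyltransferase that places H3R2me2a, and both were made with a rat monoclonal antibody from the submitting laboratory. The library without ATRA carried the lists called cluster I and cluster II. The library from cells given 1 µM ATRA for 3 days carried cluster III and the promoter and enhancer lists. The other 20 of the 22 samples, PRMT6-deleted cells, IgG controls and other histone marks, were not analysed here. There was 1 library per condition, so no difference below has a replicate check and no p-values are given. The depth of the libraries is unknown, and all region coordinates are on hg19.

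H3K4 methylation marks active chromatin: trimethylation lies at active promoters and monomethylation at enhancers. In mammals it is written by KMT2 and SETD1 enzymes working in complexes that share the subunits WDR5, RBBP5, ASH2L and DPY30, and it is erased by KDM5 and LSD1-type demethylases. H3R2me2a lies close to lysine 4 on the H3 tail, and biochemical work has described it as opposing binding and activity of KMT2-type complexes on that tail. ASH1L was first described as an H3K4 enzyme and is now known mainly for methylating lysine 36 of H3.

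For orientation, the start sequences of 5 members follow, each 5′ to 3′ along the gene, from 250 bases before to 50 bases after the RefSeq start on GRCh38.p14, with every CpG dinucleotide in capitals. KMT2A is shown because its region has the most tags per length among the 8819 regions of these lists, KMT2B because its window holds the most CpG, and RBBP5 because its window holds the fewest although its region ranks next after KMT2A. KDM5C is shown as a member whose region was in cluster III, and KDM5A because the region at its start carries the name of another gene. RefSeq windows were matched by symbol for 9 of the 10 members. The windows were not placed on the hg19 regions, and the distance of each region to a start is the authors' own.
KMT2A (chr11:118436242-118436541, plus strand): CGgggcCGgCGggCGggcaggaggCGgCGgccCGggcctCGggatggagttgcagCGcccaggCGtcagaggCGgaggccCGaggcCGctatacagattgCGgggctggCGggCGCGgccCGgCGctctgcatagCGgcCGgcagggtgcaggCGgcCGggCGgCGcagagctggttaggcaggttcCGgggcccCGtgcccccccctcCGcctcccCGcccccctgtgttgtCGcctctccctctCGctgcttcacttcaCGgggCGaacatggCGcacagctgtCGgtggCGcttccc
KMT2B (chr19:35717753-35718052, plus strand): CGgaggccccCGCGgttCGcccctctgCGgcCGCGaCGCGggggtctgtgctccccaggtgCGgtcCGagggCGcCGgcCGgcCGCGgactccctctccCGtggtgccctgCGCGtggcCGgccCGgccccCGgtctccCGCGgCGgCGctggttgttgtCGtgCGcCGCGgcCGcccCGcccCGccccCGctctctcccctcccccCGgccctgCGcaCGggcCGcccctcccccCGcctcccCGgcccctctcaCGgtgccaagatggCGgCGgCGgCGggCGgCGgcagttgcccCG
RBBP5 (chr1:205121929-205122228, minus strand): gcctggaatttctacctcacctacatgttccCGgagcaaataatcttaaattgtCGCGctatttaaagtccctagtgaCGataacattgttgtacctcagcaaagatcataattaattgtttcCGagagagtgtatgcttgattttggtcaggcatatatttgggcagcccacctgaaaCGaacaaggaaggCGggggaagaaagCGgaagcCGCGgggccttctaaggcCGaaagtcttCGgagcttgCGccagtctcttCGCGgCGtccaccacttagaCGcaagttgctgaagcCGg
KDM5C (chrX:53225158-53225457, minus strand): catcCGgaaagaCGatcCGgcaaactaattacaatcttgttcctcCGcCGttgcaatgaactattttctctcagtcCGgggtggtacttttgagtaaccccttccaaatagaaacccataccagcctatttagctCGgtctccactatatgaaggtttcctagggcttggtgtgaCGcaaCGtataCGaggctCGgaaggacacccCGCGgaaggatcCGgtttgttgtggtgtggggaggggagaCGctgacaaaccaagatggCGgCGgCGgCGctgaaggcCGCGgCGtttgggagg
KDM5A (chr12:389271-389570, minus strand): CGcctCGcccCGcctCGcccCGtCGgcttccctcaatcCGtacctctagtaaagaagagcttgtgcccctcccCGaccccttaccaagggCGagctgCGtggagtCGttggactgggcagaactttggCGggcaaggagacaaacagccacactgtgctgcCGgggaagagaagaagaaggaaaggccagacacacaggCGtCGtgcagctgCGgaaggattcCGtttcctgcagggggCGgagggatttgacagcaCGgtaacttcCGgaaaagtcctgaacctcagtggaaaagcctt

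Most of the member regions lay at gene starts and in cluster II. Of the 12 regions, 9 were in the promoter list, against 48.0% of all regions. In the promoter list 6 of 9 were in cluster II, against 35.5% of all promoter-list regions, and in both lists together 7 of 12 were, against 23.8% of all regions. The other 5 regions were in cluster III and none was in cluster I. These shares are descriptions, since the genes were picked with their regions known. Of the 9 promoter-list regions, 8 had a negative distance, against 59.8% of the promoter list. Distance was read from the summit of a region, here and below, so a negative value places the summit upstream of the transcript start. Such a region can still span the start. At KMT2A the summit lay 577 bp into a region 998 bp wide and 140 bp before the start, which therefore fell inside the region.

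Tagcount, the authors' number of sequence tags in a region, was the measure that all regions share. In the promoter list it was 1030 tags at KMT2A, 225 at RBBP5, 141 at KMT2B, 137 at KMT2D and 80 at SETD1A. It was 67 at KDM5B, 62 at ASH1L, 48 at KDM5C and 42 at ASH2L. All 9 were above the promoter-list median of 40 tags, and their own median was 80 tags. A tagcount of 100 or more was reached by 4 of the 9 (KMT2A, RBBP5, KMT2B and KMT2D), against 13.9% of the list. The 6 cluster II regions ranked above the 3 cluster III regions, and the medians of the whole promoter list were also higher in cluster II (74 tags) than in cluster III (30 tags). No cluster II region had fewer than 35 tags, whereas cluster III of the promoter list went down to 4. Cluster and tagcount are thus tied in these lists, and this order is not a separate result.

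**Figure D1:**
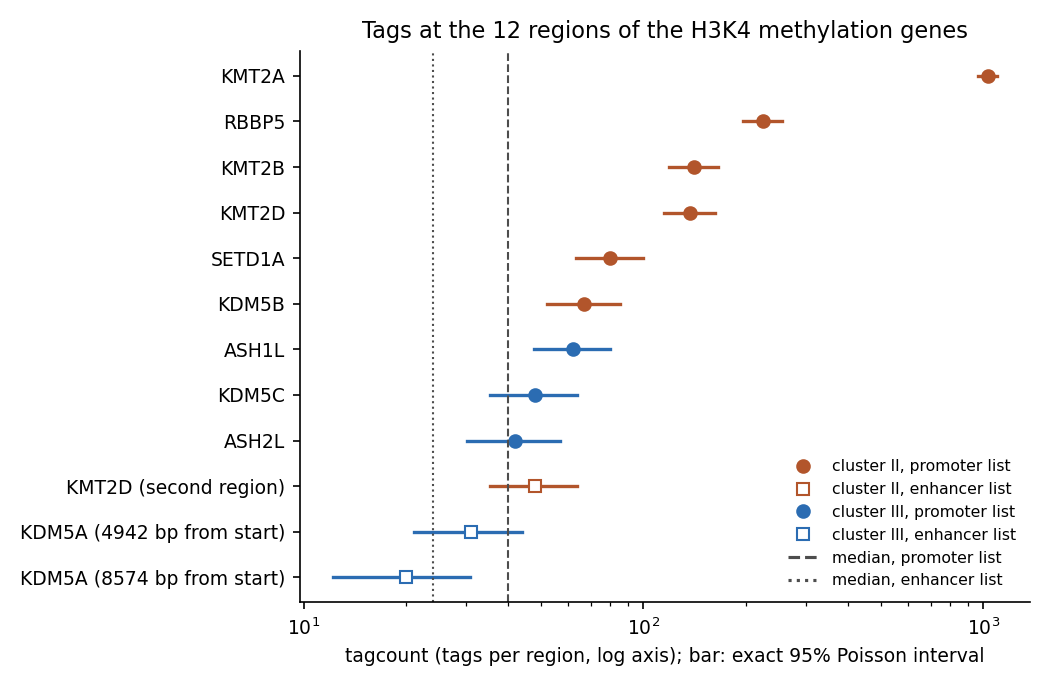
Tagcount at the 12 regions on a log axis, with exact 95% Poisson intervals that cover counting error only. KMT2A, at 1030 tags, stands apart from the other regions, which lie between 20 and 225 tags; dashed and dotted lines mark the medians of the promoter list (40) and the enhancer list (24).

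The 4 members of the KMT2 and SETD1 families held all 5 of their regions in cluster II, against 23.8% of all regions, and 2 of the 5 belong to KMT2D. Of these 5, 4 were in the promoter list, where the cluster II share was 35.5%. This does not hold for the whole families. The KMT2E region (61 tags) and the region at the start of SETD1B (25 tags) were in cluster III, and KMT2C was not named. KMT2A encodes the H3K4 methyltransferase MLL1, which is rearranged in acute leukaemias. Its region (chromosome 11, 118306473 to 118307470) lay in the start window and was 998 bp wide. The summit was 140 bp upstream of the start of ENST00000534358, the gene's canonical transcript. The region had 1030 tags (95% Poisson interval 968 to 1095). It had rank 4 by tagcount among the 4236 promoter-list regions, below 2 regions of Y RNA copies on unplaced contigs and that of USP5 (1190 tags). Per kb of region width it ranked 1 of the promoter list and 1 of all 8819 regions, at 1032 tags per kb. The next regions by this density were a Y RNA copy on an unplaced contig (956 tags per kb) and USP5 (855 tags per kb). In tagcount the nearest lower ranks were PRCC (867 tags) and FBXL19 (770 tags). The nearest other region was a cluster I region at ATP5L, 34060 bp away on the upstream side, with 40 tags.

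KMT2B encodes a close relative of KMT2A that acts at promoters. The summit of its region (chromosome 19, 36208237 to 36208912) lay 433 bp upstream of a start. The region had 141 tags (119 to 166) in 676 bp. A cluster II region named U2AF1L4 lay 27231 bp away with 63 tags. KMT2D encodes an enzyme known for H3K4 monomethylation at enhancers and carried a pair of regions 4113 bp apart on chromosome 12. The upstream region (49454267 to 49455006) was in the promoter list with 137 tags (115.0 to 162) in 740 bp, 1056 bp upstream of the start of ENST00000547610. That transcript was not found in the GENCODE release used. The smaller region (49449815 to 49450153) was in the enhancer list, although the authors placed it in a start window. By their distance its summit lay 834 bp upstream of the start of ENST00000301067. GENCODE marks ENST00000301067 as canonical, but on a newer genome build. The start on that build was not placed on the regions, so its distance to either region was not tested. The smaller region had 48 tags (35.4 to 63.6) in 339 bp, which is narrow for that list (percentile 3.27) and dense (141.6 tags per kb, percentile 95.2). What separates the promoter list from the enhancer list is not stated in the labels or headers.

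SETD1A encodes an enzyme of H3K4 trimethylation at promoters. Its region (chromosome 16, 30968766 to 30969432) had 80 tags (63.4 to 99.6) and was the member region with a positive distance in the promoter list, 27 bp beyond the start of ENST00000452917. In GENCODE 44 that transcript starts 542 bp downstream of the canonical start. A cluster III region named AC135048.13 lay 8010 bp away with 43 tags.

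The complex subunits differed in level and in cluster. RBBP5, a shared core subunit, had 225 tags (197 to 256) in a cluster II region (chromosome 1, 205090929 to 205091724), at rank 153 of the promoter list. The summit of that region lay 269 bp upstream of a start. ASH2L, another core subunit, had 42 tags (30.3 to 56.8) in a cluster III region 4 bp from a start (chromosome 8, 37962827 to 37963406), near the middle of the list (percentile 53.9). Neither had another region within 50 kb.

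ASH1L had a cluster III region (chromosome 1, 155532375 to 155533263) that was wide at 889 bp (percentile 90.2 of promoter-list widths). The summit of this region lay 306 bp upstream of a start. Its tagcount was 62 tags (47.5 to 79.5), which fell at percentile 72.5 of the promoter list by count and 49.4 per kb. A second region, named for the antisense gene ASH1L-AS1, lay 447 bp away with 24 tags, also in cluster III and in the promoter list.

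The KDM5 demethylases, which remove methyl groups from di- and trimethylated H3K4, had 1 of their 4 regions in cluster II, a share near the 23.8% of all regions. In the promoter list it was 1 of 2, against 35.5% of that list. The other 2 were in the enhancer list, where 595 of 4583 regions were in cluster II. KDM5B had 67 tags (51.9 to 85.1) in its cluster II region, with the summit 51 bp upstream of a start (chromosome 1, 202777383 to 202777887). A cluster III region of the non-coding gene RP11-480I12.10 lay 1723 bp away, with 39 tags. The X-linked KDM5C had 48 tags (35.4 to 63.6) in a cluster III region, with the summit 104 bp upstream of a start (chromosome X, 53254224 to 53254795). KDM5A was named only by intronic enhancer-list regions on chromosome 12. The region at 492365 to 493139, 4942 bp beyond the start of ENST00000536014, had 31 tags (21.1 to 44), and the region at 451793 to 452171, 8574 bp upstream of the start of the retained-intron transcript ENST00000544777, had 20 tags (12.2 to 30.9).

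The start of KDM5A itself was marked under another gene's name. A cluster III promoter-list region 4889 bp from the nearer KDM5A region (chromosome 12, 498029 to 499277) was named CCDC77, and lay 15 bp from the start of the CCDC77 transcript ENST00000540344. In GENCODE 44, on hg38, that transcript starts 99 bp from the canonical start of KDM5A on the opposite strand. The region had 151 tags (percentile 92.9 of the promoter list) in 1249 bp, a higher count than any region named for a KDM5 gene. Per kb of width it did not lead, since the KDM5B region, 505 bp wide, was denser at 133 tags per kb. The tags of a start shared by both genes cannot be assigned to either. This region is outside the naming rule and was found by a search for shared starts. Among the other members the same search, which required starts within 1000 bp of each other, found no further region.

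Counting error separated only some neighbours in the order of tagcount. KMT2A had 4.58 times the tags of RBBP5 (exact conditional 95% interval 3.96 to 5.31), and RBBP5 had 1.6 times those of KMT2B (1.29 to 1.98). KMT2D exceeded SETD1A by a ratio of 1.71 (1.29 to 2.29). The intervals of the other 5 steps, KMT2B to KMT2D and each step from SETD1A down to ASH2L, included 1. These intervals hold no replicate error, and tags that are PCR copies would make them too narrow.

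**Figure D2:**
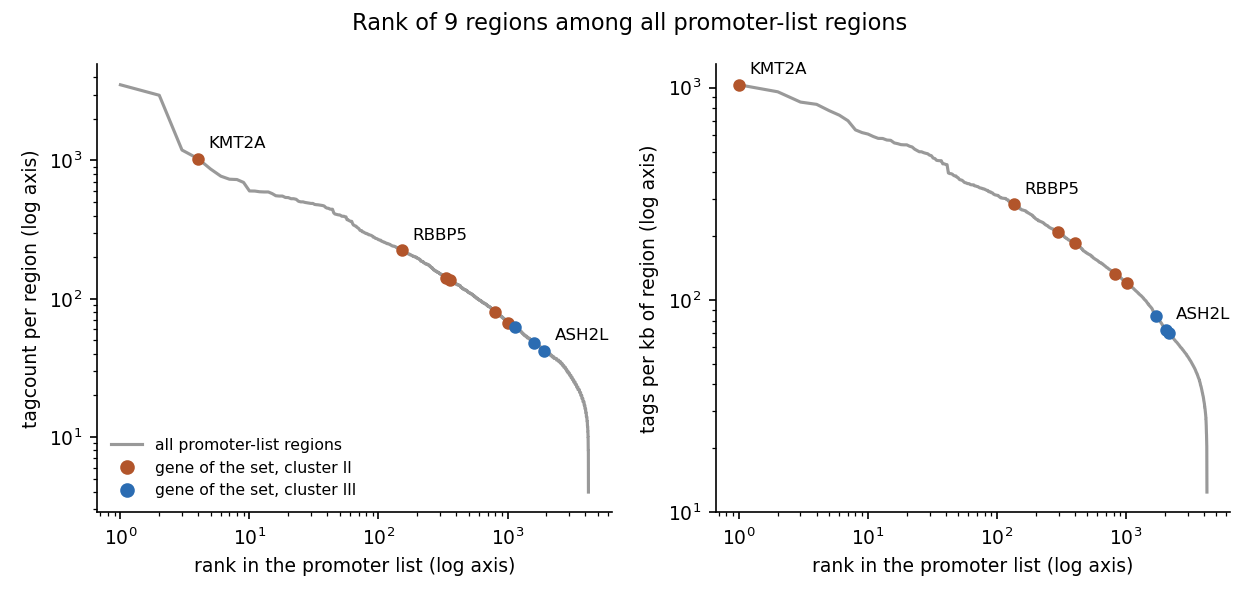
Tagcount (left) and tags per kb of region (right) of all 4236 promoter-list regions against their rank, on log axes, with the 9 member regions marked. KMT2A sits at rank 4 by count and rank 1 per kb, whereas ASH2L sits at rank 1924 by count.

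Cluster II rows gave each region as a pair of overlapping intervals, and the second interval was wider than the first at all 7 member regions, against 84.9% of cluster II. The labels and headers do not say which library either interval comes from, and no tags accompany the second. At KMT2A the second interval was 1513 bp wide and reached 547 bp further upstream than the first, while its downstream edge ended 32 bp short. At KDM5B it was 857 bp wide against 505 bp and reached 347 bp further into the gene. At SETD1A it reached 318 bp further downstream, and at KMT2B 205 bp further upstream. RBBP5 had nearly equal intervals of 796 and 826 bp. Across cluster II the median extension was 63.5 bp upstream and 80 bp downstream, and the median ratio of second to first width was 1.29. Among members this ratio ran from 1.04 at RBBP5 to 1.70 at KDM5B.

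**Figure D3:**
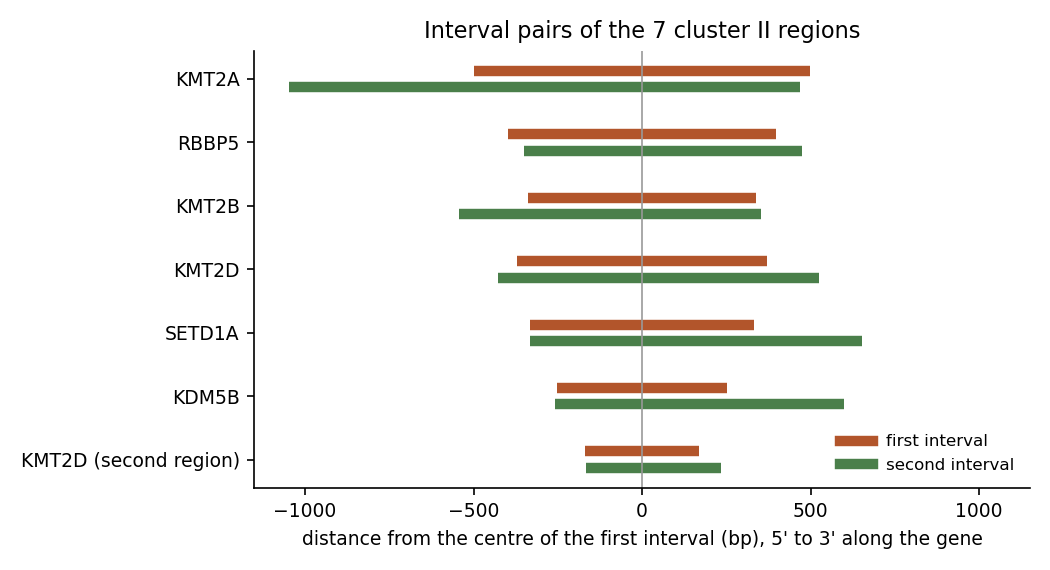
First and second intervals of the 7 cluster II regions, in bp from the centre of the first interval and oriented along the gene. The second interval reaches upstream at KMT2A (547 bp) and KMT2B (205 bp), and into the gene at KDM5B (347 bp) and SETD1A (318 bp).

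At the 5 cluster III regions a second count, the MACS tags of the peak caller, could be set beside tagcount. Cluster III was deposited under the library with ATRA, and tagcount may come from the library without ATRA: in cluster I (202 regions), which belongs to that library, it lay 0 to 8 tags above the MACS tags. The lists were drawn up from these libraries and their depths are unknown, so a ratio is read only against other cluster III regions. ASH1L had 147 MACS tags (124 to 173) and 62 in tagcount, a ratio of 2.37 (1.75 to 3.24). KDM5C had 92 and 48 tags, a ratio of 1.92 (1.34 to 2.78), and ASH2L had 79 and 42 tags, a ratio of 1.88 (1.28 to 2.80). The median ratio of cluster III promoter-list regions was 1.77 (quartiles 1.5 and 2.15), so KDM5C and ASH2L lay inside the middle range and ASH1L above it, at percentile 83.7, with an interval that includes the median. A ratio of at least 2 was reached by 1 of these 3 regions, against 35.2% of cluster III promoter-list regions.

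The KDM5A introns stood lower among their own class. The nearer region had 57 MACS tags against 31 in tagcount, a ratio of 1.84 (1.17 to 2.95), and the more distant 36 against 20, a ratio of 1.80 (1.01 to 3.28). The median of cluster III enhancer-list regions was 2.66, and these regions lay at percentiles 28.6 and 27.4, with both intervals including that median. A ratio of at least 2 was reached by 0 of 2, against 66.5% of those regions. At the start that KDM5A shares with CCDC77 the counts were 252 and 151 tags, a ratio of 1.67. For the 6 genes with cluster II regions the cluster II rows used here give no MACS tags. Tagcount, whose library is not stated, is therefore the only count for KMT2A, KMT2B, KMT2D, SETD1A, RBBP5 and KDM5B.

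**Figure D4:**
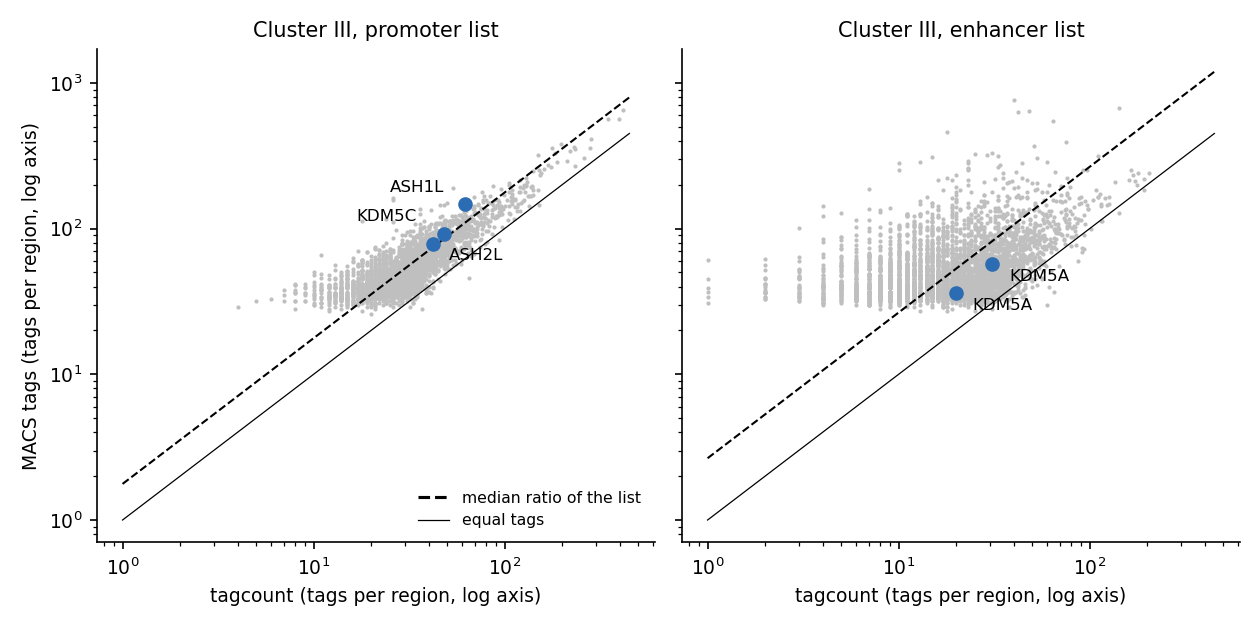
MACS tags against tagcount on log axes for cluster III regions of the promoter list (left) and enhancer list (right, leaving out 1 region with a tagcount of 0), with the regions of ASH1L, KDM5C, ASH2L and KDM5A marked. The dashed lines are the median ratios (1.77 and 2.66) and the solid lines equal tags; the KDM5A points lie below their dashed line.

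The rule did not use sequence, and most members had more CpG at their starts than the median gene. The 9 windows held 18 (RBBP5) to 48 (KMT2B) CpG in 300 bases, with a median of 30. The median was 22 over 15843 protein-coding genes and 25 over 2655 genes named by a promoter-list region. The median ratio of observed to expected CpG was 0.943 in members and 0.853 in genes named by the promoter list. KMT2A had 36 CpG (percentile 84.0 among protein-coding genes), while RBBP5, the next by tagcount, had 18 (percentile 40.8). Order by CpG thus differed from order by tagcount. Among the genes named by the promoter list, those whose strongest region was in cluster II or cluster III had medians of 24 and 26.5 CpG.

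**Figure D5:**
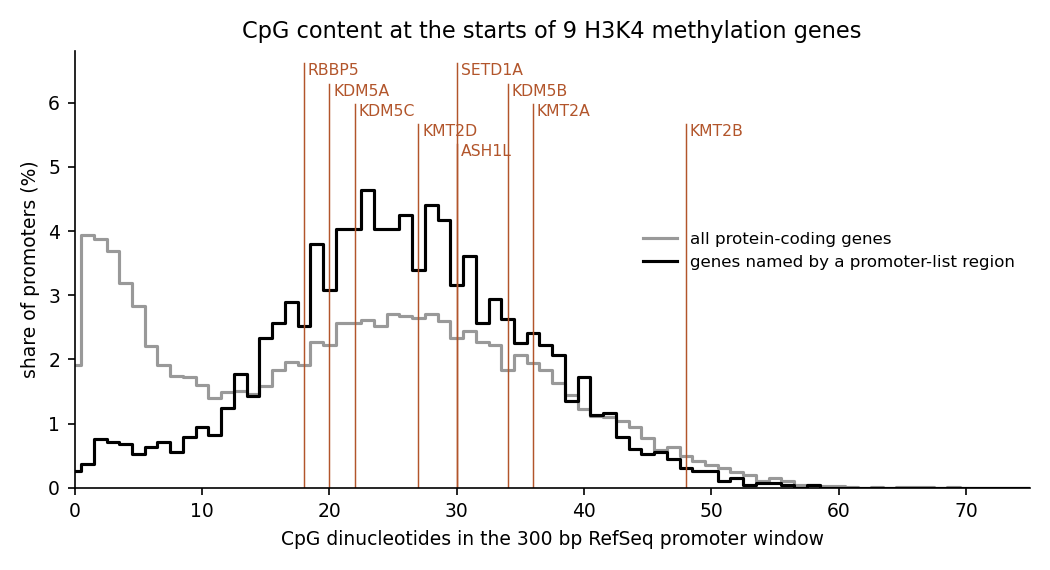
Share of promoters (%) by number of CpG dinucleotides in the 300 bp RefSeq window, for all protein-coding genes and for genes named by a promoter-list region, with 9 members marked by vertical lines. Members lie between 18 (RBBP5) and 48 (KMT2B) CpG, away from the CpG-poor group of protein-coding genes at the left.

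Short motifs were searched on both strands of the same windows, with overlapping matches allowed. The SP/KLF box GGGCGG was found in 7 of 9 members (all but RBBP5 and KDM5C), against 66.6% of genes named by the promoter list and 44.6% of all 27305 promoters in the table. KMT2B had 5 matches, SETD1A 4, and KMT2A and KDM5B 3 each. The YY1 core GATGGCG was found at KMT2B and KDM5C, against 10.8% of genes named by the promoter list and 4.35% of all promoters. Counted from the start as base 1, it began at base 16 in KMT2B and at base 11 in KDM5C. In both sequences printed above it is followed by a run of CpG. The ETS core CCGGAAG was found at KDM5A (24.2% of named genes and 10.7% of all promoters) and the E-box CACGTG at KMT2D (10.9% and 7.43%).

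No member window held the CCAAT box CCAAT (34.9% of named genes and 35.7% of all promoters), the TATA box TATAAA (5.12% and 11.95%) or the NRF1 core GCATGCG (6.74% and 4.13%). The retinoic acid receptor element DR5, searched as a pair of AGGTCA sites in the same direction spaced by 5 bases, was in no member window and in 1 of the 27305 promoters. These are matches of letters in a window of 300 bases and not measured binding sites.

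Another region lay within 50 kb of 9 of the 12 member regions, against 58.3% of all regions. The 9 include the KMT2D pair and the KDM5A pair, which are each other's neighbours.

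Other genes of H3K4 methylation, listed by function, were named in part. Of 23 further methyltransferase and subunit genes 10 were named, by 9 promoter-list regions and 1 enhancer-list region, with 4 regions in cluster II and 6 in cluster III. In cluster II were BOD1 (240 tags), MEN1, which encodes the menin partner of KMT2A (111 tags), PAGR1 (64 tags), a subunit of the KMT2C and KMT2D complexes, and CXXC1 (42 tags), a CpG-binding subunit of SETD1 complexes. In cluster III, KMT2E had 61 tags and PSIP1, whose protein tethers menin and KMT2A to chromatin, had 74 tags. No region was named for WDR5, DPY30 or KMT2C. SETD1B was not named either, but a cluster III region named AC084018.1 (25 tags) lay at a start 103 bp from its own on the opposite strand.

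Among 8 further demethylase and partner genes 4 were named, by 1 region in cluster I, 1 in cluster II and 5 in cluster III. KDM2B, a CpG-binding demethylase, had all of its 3 regions outside cluster II, the strongest being a cluster I region with 68 tags. Genes of the CoREST family, partners of LSD1, were RCOR3, with 58 tags in cluster II and 19 in cluster III, RCOR2 (40 tags, cluster III) and RCOR1 (26 tags, cluster III). KDM1A, which encodes LSD1, and KDM1B, which encodes its relative LSD2, were not named.

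The members were also set beside other histone lysine enzymes and the proteins that read H3K4 methylation. Median tagcount in the promoter list was 80 tags over the 9 member regions. It was 61 over 9 regions of the further H3K4 methyltransferase and subunit genes, most of them subunits or partners. Over 5 regions of the further H3K4 demethylase and partner genes, of which only KDM2B encodes a demethylase, it was 34. It was 43 over 7 regions of readers, 51 over 5 of other lysine methyltransferases and 33 over 7 of other lysine demethylases, with 40 over the whole list. Cluster II held 6 of 9, 4 of 9, 1 of 5, 3 of 7, 2 of 5 and 0 of 7 of these regions in the same order, against 35.5% of the whole promoter list. The shares of the further H3K4 methyltransferase and subunit genes, the readers and the other lysine methyltransferases thus lay near that of the list. The members were chosen because they have regions, and these differences were not tested.

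Single genes of those lists reached the level of KMT2B and KMT2D. The repair-linked methyltransferase gene SETMAR had 158 tags, and the reader genes PHF13 and ING3 had 157 and 155 tags, all in cluster II. These 3 were singled out after their values were seen. Among methyltransferase genes of other lysines, EHMT1 had 82 tags in an intronic enhancer-list region of cluster II, SUV420H1 had 69 in cluster II and SETDB1 had 51 in cluster III. The reader genes with more than 1 region were ING1 (40 and 51 tags), ZMYND8 (45 and 26), DIDO1 (14 and 18) and SPIN1 (43 and 13). All of these reader regions were in cluster III except the ING1 region with 40 tags, which was in cluster II. The 7 regions of the demethylase genes KDM2A, KDM3A, KDM4A, KDM4C and KDM6B were all in cluster III, with 11 to 45 tags. EHMT2, a lysine 9 methyltransferase gene, was not named, but a cluster II region named for the neighbouring gene C2 (151 tags) was assigned to a start 89 bp from its own. The summit of that region lay 817 bp from that C2 start. A cluster II region named CCDC101 (75 tags) lay at a start 5 bp from that of the reader gene SGF29 on the same strand. It may be the region of SGF29 itself under another symbol and not that of a neighbouring gene. PYGO2, NSD3 and KDM4D, also not named, had cluster III regions of other names at starts near their own, with 28 to 66 tags. The medians and cluster shares of the lists leave these regions out. A search by gene name alone thus omits regions that carry another name at or near a gene's start, as at KDM5A.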

How the data were processed

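H3R2me2a ChIP-seq region lists from control NT2/D1 cells with and without ATRA were used, 1 library each, from 22 samples. Per the submitters' processing notes, bcl2fastq, Bowtie2, MACS 1.4 and deepTools were used with hg19, with no role or order given. Values are unscaled counts of tags in each region, deposited as tagcount and, for clusters I and III, as MACS tags. The headers set the position classes at 1250 bp for a start and 5000 bp for upstream. The library of tagcount, the peak-calling control and the cluster criteria are not stated in the labels or headers, and depth is unknown.

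Cluster rows were matched to list rows by identical coordinates with pandas 2.3.3. Counts carry exact Poisson 95% intervals and ratios exact conditional ones (SciPy 1.17.1). Both were run on simulated Poisson counts, which checks the code and not their coverage for real tags. Percentiles are mid-ranks within a list. The sign of the distance, taken from the summit, was checked on 822 transcripts that several regions name. The implied starts spread least (median 111 bp) when negative means upstream. Starts, transcript types and promoter windows came from GENCODE 44 and RefSeq GRCh38.p14 and were compared only within hg38; 6936 of 7600 transcript identifiers were found. The text names all 10 members, the neighbouring region on each side within 50 kb, the regions next to KMT2A in rank, and up to 4 genes per list by regions and tagcount. Outside this rule, CXXC1, KMT2E, PHF13, ING3, KDM4C, the genes found by shared starts and those given as not named were chosen after their values were seen. Members and lists were chosen with earlier results of these data known. Lists held some synonyms of 1 gene. Alternatives covered stricter tag counts, distance, width, genes against regions, joins, pseudocount and reference set.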

Additional observations from a re-analysis of the deposited data

How the results depend on the processing

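Under the alternatives, 24 values for the members as a group stayed inside the interval of the reported value, and 1 did not. For the shares that interval was an exact binomial one on the 12 member regions. It treats them as independent draws and is wide, so staying inside it is a weak check. Some alternatives kept the same 9 promoter-list regions, so their median of 80 tags could not change. The median tagcount percentile of the members' promoter-list regions, 81.1, fell to 68.9 when only regions with at least the lowest cluster II tagcount (35) were ranked, because the weaker part of the list drops out; it was 81.1 on placed chromosomes only, an alternative chosen after seeing the data. For single regions, 10 of 12 percentiles moved by more than counting error when ranked among regions of the same cluster and list. Cluster and tagcount are tied, so lower percentiles in cluster II and higher ones in cluster III follow from the change of reference set. Among regions of the same cluster and list the percentiles were 43.8 for KDM5B, 54.7 for SETD1A, 79.5 for KMT2B and 91.5 for ASH1L, against 75.7, 81.1, 92.2 and 72.5 in the whole promoter list. With the other H3K4 lists added, the cluster II share went from 58.3% to 41.4% of regions, a change counted among the 24 inside the interval. No paired analysis was possible because each condition has 1 library, and no replicate could be left out. Unknown depth limits every ratio of MACS tags to tagcount, and small counts such as 20 tags at KDM5A carry wide intervals.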
